A study of Mus musculus with 48 samples.

Results

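Aged and adult mouse epidermis were compared at Zeitgeber time 0 (ZT0), the moment of lights on. The comparison was chosen by the libraries' labels for age and time and holds 8 of the 48 libraries of the series. Of these, 4 came from aged mice (80 to 90 weeks old) and 4 from adult mice (18 to 25 weeks old). The other 40 libraries, 20 per age, were taken at ZT4, ZT8, ZT12, ZT16 and ZT20 and are used here for the same contrast of ages at other times. All mice gave a suspension of epidermal cells from which total RNA was sequenced after removal of ribosomal RNA, so transcripts without a poly(A) tail and unspliced ones could be counted. No group carried a stated treatment or genotype. The mice's strain and sex are not stated in the sources used here, so a difference between ages may include one of genetic background. Whether each replicate is a separate animal is not stated either, and the p-values then measure only the spread between these samples, which may be technical.

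As background, the epidermis is renewed by basal keratinocytes, while the hair follicle holds its own stem cells in the bulge, marked by CD34 and the transcription factor LHX2. Resting follicle stem cells are kept quiet by bone morphogenetic protein (BMP) signals and by the growth factor FGF18, and skin cells follow a daily clock. Small nucleolar RNAs (snoRNAs) guide the chemical modification of ribosomal RNA. Box C/D members direct methylation of the sugar and box H/ACA members the conversion of uridine to pseudouridine. Most mammalian snoRNAs are released from introns of host genes.

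The 4 snoRNAs whose age effect at ZT0 departed most clearly from that at the other times are printed here because the results on lights on turn on them. The box H/ACA RNA Snora81 lies at chr16:23110756-23110933 on the plus strand, within Eif4a2, and Snora23 at chr7:110046364-110046547 on the plus strand, within Ipo7. The box C/D RNA Snord17 lies at chr2:144265979-144266216 on the minus strand, within Snx5, and Snord15a at chr7:99482785-99482932 on the minus strand, within Rps3. Sequences and positions are those of GENCODE M21 transcripts (GRCm38), written 5′ to 3′ with T for U. Capitals mark the ACA found in the last 8 bases of a Snora RNA, and the box C core TGATGA and box D CTGA of a Snord RNA. ACA was found in the last 8 bases of 40 of the 42 named Snora transcripts of that annotation, and Snora81 as annotated there is 1 of those without it. TGATGA followed by CTGA, which cannot overlap it, was found in 74 of its 98 named Snord transcripts. The RNA's own strand was searched.
Snora81: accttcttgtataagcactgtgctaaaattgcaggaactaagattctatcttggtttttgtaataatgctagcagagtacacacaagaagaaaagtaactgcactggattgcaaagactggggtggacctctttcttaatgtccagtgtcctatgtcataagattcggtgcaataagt
Snora23: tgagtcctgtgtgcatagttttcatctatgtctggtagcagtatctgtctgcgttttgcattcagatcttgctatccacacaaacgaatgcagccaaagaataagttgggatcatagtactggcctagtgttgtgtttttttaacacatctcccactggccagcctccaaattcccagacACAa
Snord17: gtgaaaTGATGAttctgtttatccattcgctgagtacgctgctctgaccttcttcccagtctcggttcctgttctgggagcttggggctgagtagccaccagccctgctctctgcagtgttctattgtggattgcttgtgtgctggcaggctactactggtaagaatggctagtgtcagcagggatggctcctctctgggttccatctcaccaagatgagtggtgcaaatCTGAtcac
Snord15a: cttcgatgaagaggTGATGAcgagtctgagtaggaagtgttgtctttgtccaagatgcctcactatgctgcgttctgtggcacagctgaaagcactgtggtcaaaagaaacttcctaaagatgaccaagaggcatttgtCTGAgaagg

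Total counts of the 8 libraries ran from 42261840 to 46548246, within the range of the whole series (40761084 to 49229498). Levels are given as CPM, counts scaled by library size, which do not correct for gene length. The label of the tissue was checked with marker genes. The 14 basal keratinocyte markers summed to 14986 to 16632 CPM in aged and 14895 to 16084 CPM in adult libraries, with no marker at 0. Endothelial and mural markers summed to only 9.26 to 11.5 CPM in aged and 7.90 to 13.3 CPM in adult libraries, with Des at 0. Not every list from outside the epidermis was that low. Dermal fibroblast markers summed to 1145 to 1574 CPM in aged and 1399 to 1784 CPM in adult libraries. Schwann cell and erythroid markers summed to 106 to 119 CPM in aged and 106 to 118 CPM in adult libraries. On the first principal component of the 3000 most variable genes (44.6% of the variance) aged library 2 lay among the adult libraries. It was at -0.08, and the other aged libraries at 0.36 to 0.47, against -0.51 to -0.05 for the adult libraries, of which library 2 was the highest. Aged library 2 also had 141 CPM of hair matrix and shaft markers, against 28.7 to 29.6 CPM in the other aged libraries and 30.3 to 102 CPM in adult libraries. Counts are therefore also given without both libraries numbered 2.

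At ZT0, 804 of the 18044 genes tested differed between aged and adult libraries, 440 higher and 364 lower in aged (edgeR's quasi-likelihood test, adjusted p under 0.05). Every rise, fall or change given below is a difference of aged from adult on the log2 scale from this fit. The called genes are 4.46% of the genes tested, 2.44% higher and 2.02% lower. The median log2 fold change of the called genes was 0.60 for those higher and -0.72 for those lower in aged, against -0.01 over all genes tested. A change of at least 1 on the log2 scale was found for 90 of the higher and 120 of the lower genes. In 421 of the higher and 338 of the lower genes the 4 aged libraries did not overlap with the 4 adult libraries. Such separation was found in 10.7% of all genes tested with aged higher and in 8.92% with aged lower. The counts leaned on every library. With 1 of the 8 left out, 236 to 349 genes were higher and 179 to 281 lower; the lowest counts came without aged library 1, and the highest without aged library 3 (higher) and adult library 2 (lower). Without both libraries numbered 2, 163 genes were higher and 211 lower. Of these, 153 and 178 were among the 440 and 364. An unadjusted p under 0.05 was reached by 10.4% of the genes tested with aged higher and by 10.2% with aged lower.

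The age effect at ZT0 was then set beside its mean over the other 5 times, which uses none of the ZT0 libraries. Over those times 2724 genes (15.1% of those tested) were higher and 2702 (15%) lower in aged, with 20 libraries per age. Of the 440 genes higher at ZT0, 192 were also called higher there, which is 43.6% of the ZT0 list and 7.05% of the other. Of the 364 genes lower at ZT0, 232 were also called lower there, 63.7% and 8.59% of the 2 lists. Calls in opposite directions were made for 1 of the higher and 7 of the lower genes. The difference between the 2 age effects itself was called for 42 genes (0.233%), with the ZT0 effect above the other in 23 and below it in 19. With 1 ZT0 library left out the difference was called for 6 (without aged library 1) to 42 genes (without adult library 2), and for 10 without both libraries numbered 2. An unadjusted p under 0.05 was reached by 2469 genes.

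**Figure D1:**
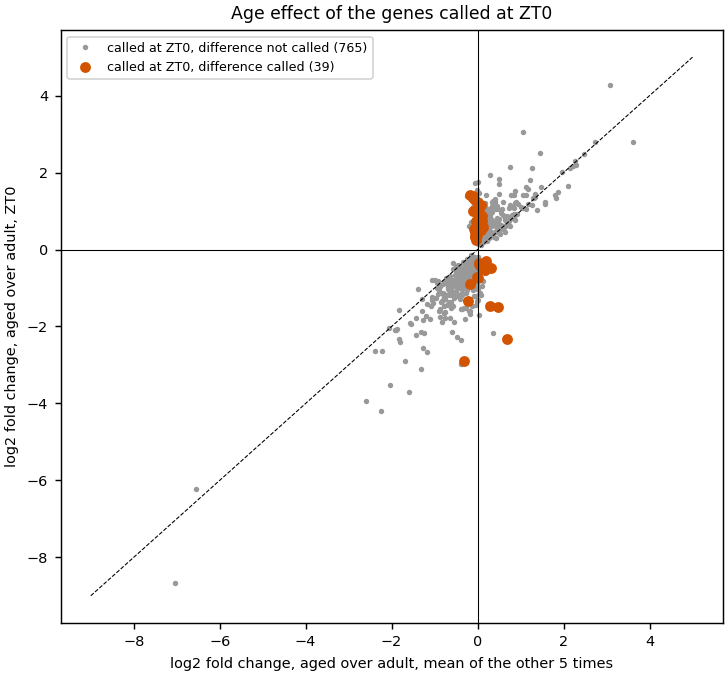
Age effect at ZT0 (y axis, log2 fold change of aged over adult) against its mean over the other 5 times (x axis, same scale) for the 804 genes called at ZT0; the dashed line marks equal effects. Most points lie in the quadrants of equal sign, and the 39 orange genes, whose difference was called too, all lie closer to 0 on the x axis than on the y axis.

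Genes of hair follicle stem cells and the outer root sheath were lower in aged epidermis at ZT0. Of 24 tested members of the list, 8 fell and 0 rose, against 2.02% of all genes that fell, and the median log2 fold change was -0.68. In 14 members the 4 aged libraries all lay below the adult ones. Over the other 5 times 11 members fell (15% of all genes did), 2 rose and the median was -0.23; the difference from ZT0 was called for 0 members. The markers of the list summed to 4711 to 4814 CPM in aged and 6094 to 7157 CPM in adult libraries, without overlap. Most of that sum came from keratins, with aged and adult means of 2643 and 3095 CPM for Krt15, 626 and 1045 CPM for Krt17 and 445 and 745 CPM for Krt79. Krt15 is also on the basal keratinocyte list. Without both libraries numbered 2, 6 members fell and the median was -0.82. In bulk RNA, fewer cells of a type and less RNA per cell cannot be told apart.

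Cd34, the surface marker of bulge stem cells, had 21.8, 22.4, 29.3 and 29.5 CPM in aged libraries, against 91.7, 68.5, 91.5 and 70.6 CPM in adult libraries. The groups did not overlap, and the adult mean at ZT0 was the highest of the 12 groups of age and time. Cd34 fell by 1.65 on the log2 scale (SE 0.30; adjusted p = 6.89e-04, edgeR), against -0.78 over the other times. Fgf18, the signal that holds follicles at rest, had 1.21, 1.27, 1.27 and 0.628 CPM in aged libraries, against 6.15, 5.03, 5.99 and 4.86 CPM in adult libraries. It fell by 2.33 (SE 0.28; adjusted p = 7.30e-07, edgeR), and every adult value was above every aged value. Lhx2, the transcription factor that maintains the bulge, had 11.8, 15.1, 13.5 and 11.0 CPM in aged libraries, against 35.6, 21.1, 38.4 and 24.3 CPM in adult libraries. It fell by 1.22 (SE 0.28; adjusted p = 0.00718, edgeR), with adult libraries 1 and 3 higher than adult libraries 2 and 4. The transcription factor gene Foxc1, another regulator of stem cell rest, fell by 0.69 (adjusted p = 0.0208, edgeR). Its groups overlapped, with 46.7 CPM in aged library 2 and 42.9 CPM in adult library 2. The sheath and duct keratins Krt79 and Krt17 fell by 0.74 each (SE 0.20 and 0.21), and averaged 445 ± 80.2 and 626 ± 57.6 CPM in aged, against 745 ± 92.2 and 1045 ± 92.7 CPM in adult libraries (SD, n = 4 each).

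Cd34, Fgf18, Lhx2, Bmp6 and Id2 kept their calls with any 1 of the 8 libraries left out. Krt17 lost its call without any 1 of them (adjusted p up to 0.104, edgeR), Krt79 without aged library 1, 3 or 4 or adult library 2 (up to 0.0916), and Foxc1 in each case except without aged library 2 or adult library 2 (up to 0.104). The members called numbered 5 without aged library 1, 3 or 4, and 6 or 7 without any other. Members not called included Krt15, at -0.23 with 2643 CPM in aged and 3095 CPM in adult libraries on average, and Lgr5, at -0.66 (adjusted p = 0.294, edgeR).

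**Figure D2:**
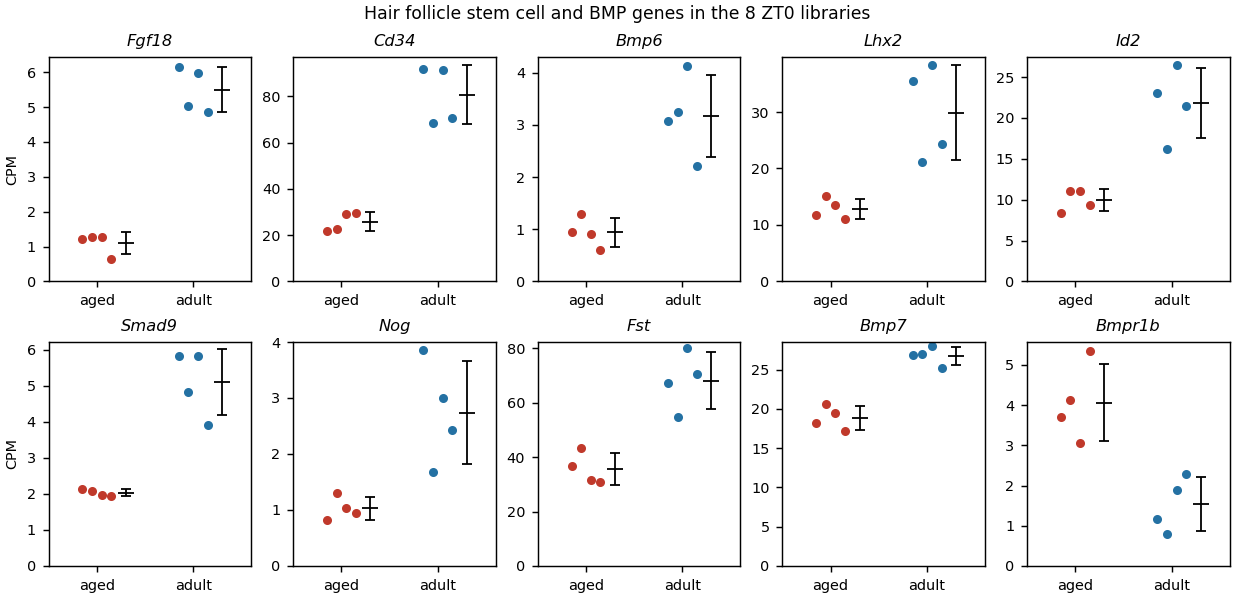
CPM of 10 hair follicle and BMP genes in the 4 aged (left, red) and 4 adult (right, blue) libraries of ZT0, with the mean and SD of each group in black. Aged and adult points do not overlap in any panel. Bmpr1b, the only gene shown with higher aged points, was not called.

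The BMP pathway list overlapped with the follicle list in Bmp6 and Id2 and moved the same way. Of 22 members 6 fell and 0 rose, against 2.02% and 2.44% of all genes tested, with a median of -0.52. Over the other 5 times 8 fell and 4 rose, against 15% and 15.1% of all genes, with a median of -0.12. Without both libraries numbered 2, 6 members fell and the median was -0.50. Among the ligands, Bmp6 had 0.954, 1.29, 0.916 and 0.605 CPM in aged libraries, against 3.08, 3.25, 4.12 and 2.21 CPM in adult libraries. Bmp6 fell by 1.75 (SE 0.37; adjusted p = 0.00351, edgeR) and Bmp7 by 0.50 (SE 0.10; adjusted p = 0.00308, edgeR). Bmp4 and Bmp2 were not called, at 0.38 and -0.34. Among the secreted antagonists, Nog fell by 1.41 (SE 0.25; adjusted p = 5.60e-04, edgeR), to 1.03 ± 0.210 CPM in aged against 2.74 ± 0.919 CPM in adult libraries. Fst, which binds activins and BMPs, fell by 0.94 (adjusted p = 0.0277, edgeR), with a mean of 35.6 CPM in aged and 68.2 CPM in adult libraries. Both called ligands and both called antagonists were lower in aged libraries.

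Smad9, of the SMADs that carry the BMP signal to the nucleus, had 2.14, 2.09, 1.97 and 1.93 CPM in aged libraries, against 5.82, 4.84, 5.82 and 3.92 CPM in adult libraries. It fell by 1.33 (SE 0.23; adjusted p = 4.63e-04, edgeR), and was at -0.23 over the other times. The difference between these effects was called (-1.10, SE 0.25; adjusted p = 0.0451, edgeR), but without any 1 of the 8 libraries it was not (up to 0.13). The other SMADs of this branch were not called, Smad1 at -0.15 and Smad5 at 0.13. Of the Id genes, which are targets of BMP signals, Id2 fell by 1.13 (SE 0.26; adjusted p = 0.00751, edgeR). Id2 had 8.33, 11.0, 11.1 and 9.33 CPM in aged libraries, against 23, 16.2, 26.5 and 21.4 CPM in adult libraries. Id1 and Id3 were not called, at -0.56 (adjusted p = 0.062, edgeR) and -0.82 (adjusted p = 0.108, edgeR), although their aged libraries all lay below the adult ones. The receptor gene Bmpr1b had a log2 fold change of 1.40 at ZT0 (adjusted p = 0.0725, edgeR) with all aged libraries above the adult ones, and rose by 1.57 over the other times. Bmpr1a and Bmpr2 were at -0.00 and -0.03. Of the called BMP genes only Fst lost its call with 1 library left out, in each case except without aged library 2 or adult library 2 (adjusted p up to 0.0894, edgeR).

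Markers of several rarer cell types had negative medians at ZT0 with few or no calls. The median log2 fold change was -1.05 over 11 melanocyte genes, -0.75 over 20 Langerhans cell genes, -0.69 over 19 epidermal T cell genes and -0.95 over 17 dermal fibroblast genes. The numbers called lower were 0, 1, 0 and 2, in that order, and 0 members were called higher, against 2.02% and 2.44% of all genes. Over the other 5 times the same medians were -0.04, 0.11, 0.19 and -0.08. Those effects are means over the times and can join opposite signs, as the Langerhans sums below show. In the melanocyte list, Mlana, Sox10, Slc45a2 and Oca2 were under 1 CPM in all 8 libraries of ZT0. Its 2 positive members, Tyr and Pmel, were at 0.34 and 0.09, and the other 9 were negative. The melanocyte sums overlapped, at 56.4 to 60.9 CPM in aged and 54.2 to 83.7 CPM in adult libraries. The Langerhans markers summed to 355 to 429 CPM in aged and to 726, 435, 669 and 720 CPM in adult libraries, so that adult library 2 lay close to the aged ones. The adult ZT0 mean of this sum, 638 CPM, was above the other 10 groups of age and time (321 to 522 CPM), while the aged mean of 400 CPM was among them. Cd207, which encodes langerin, had 5.17, 7.60, 6.95 and 11.0 CPM in aged libraries, against 26.3, 7.96, 18.8 and 18.5 CPM in adult libraries. It was not called (-1.22, SE 0.70; adjusted p = 0.326, edgeR), and aged library 4 lay above adult library 2. Of the Langerhans list, Epcam alone fell, by 0.55 (SE 0.12; adjusted p = 0.0046, edgeR), with 83.9 to 87.6 CPM in aged and 124 to 128 CPM in adult libraries. Epcam encodes an adhesion protein that keratinocytes of the follicle make too. For 2 other lists with negative medians the sums were higher in aged libraries, without overlap. Macrophage, neutrophil and mast cell markers (median -0.61) summed to 115 to 130 CPM in aged and 92.2 to 106 CPM in adult libraries. Merkel cell markers (median -0.70) summed to 4.88 to 6.21 and 3.87 to 4.09 CPM. Of these lists, 13 of 19 and 7 of 8 markers were under 1 CPM in all 8 libraries.

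Among T cell markers adult library 2 again stood apart, with a sum of 86.6 CPM against 166 to 182 CPM in the other adult and 92.6 to 153 CPM in the aged libraries. The markers of dermal fibroblasts summed to 1145 to 1574 CPM in aged and 1399 to 1784 CPM in adult libraries, and of this list the collagen VI genes Col6a1 and Col6a2 fell by 0.95 and 1.21 (adjusted p = 0.0394 and 0.0484, edgeR). Each kept that call with only 1 choice of library left out (Col6a1 without adult library 4, Col6a2 without adult library 2; otherwise adjusted p up to 0.155 and 0.161). The part of these markers in other results was not tested.

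The called chemokine genes, Ccl2 and Cxcl10, were low in both ages. Ccl2, which attracts monocytes, had 0.442, 0.734, 0.737 and 0.302 CPM in aged libraries, against 2.89, 2.67, 2.76 and 2.45 CPM in adult libraries, and fell by 2.27 (SE 0.56; adjusted p = 0.0131, edgeR). The adult mean was above those of the other 10 groups (0.699 to 1.82 CPM). The interferon-induced Cxcl10 fell by 1.89 (adjusted p = 0.0392, edgeR), with 0.759 to 1.53 CPM in aged and 2.16 to 6.02 CPM in adult libraries. Ccl2 and Cxcl10 were the only called members of 23 chemokines and cytokines, against 2.02% of all genes that fell. The neighbours in this family Ccl7 and Cxcl9, chosen after their values were seen, were at -1.49 and -1.24 and not called (adjusted p = 0.0645 and 0.0542, edgeR). Ccl2 lost its call without aged library 1 or 4 (adjusted p up to 0.06) and Cxcl10 without any 1 library except adult library 2 (up to 0.116). Of 26 immediate early genes Ier5 alone fell (2.02% of all genes did), by 0.57 (adjusted p = 0.0186, edgeR). It lost its call without aged library 1 or 2 or adult library 1 (up to 0.0934). The median of that list was -0.13 at ZT0, and 0.45 over the other 5 times, where 22 members and 15.1% of all genes rose; the difference was called for 0 of the 26.

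Several snoRNAs were higher in aged epidermis at ZT0, and for some of them this age effect differed from that at the other times. Of 118 snoRNAs and small Cajal body RNAs tested 14 were higher and 4 lower in aged (against 2.44% and 2.02% of all genes), with a median of 0.16. The difference from the other 5 times was called for 7 of them, against 0.233% of all genes. Snora81 had 31.2, 44.0, 44.4 and 58.0 CPM in aged libraries, against 18.9, 15, 13.5 and 22.6 CPM in adult libraries. It rose by 1.34 (SE 0.19; adjusted p = 1.93e-05, edgeR) at ZT0 and was at -0.11 over the other times, a difference of 1.45 (SE 0.21; adjusted p = 2.48e-04, edgeR). That mean joins effects of opposite sign, from -0.55 at ZT8 to 0.35 at ZT16. The adult ZT0 mean of 17.5 CPM was the lowest of the 12 groups, of which the other 10 ran from 25.0 to 44.7 CPM, while the aged mean of 44.4 CPM lay within that range.

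Snord17 had 215, 270, 281 and 347 CPM in aged libraries, against 98.4, 98.1, 87.2 and 143 CPM in adult libraries. It rose by 1.38 (SE 0.20; adjusted p = 2.95e-05, edgeR), and its adult ZT0 mean of 107 CPM lay under the 146 to 287 CPM of the other 10 groups. Snora23 had 26.1, 36.3, 38.5 and 49.9 CPM in aged libraries, against 13.2, 13.3, 11.4 and 18.6 CPM in adult libraries. It rose by 1.42 (SE 0.25; adjusted p = 4.60e-04, edgeR), and Snord15a by 1.22 (SE 0.20; adjusted p = 1.42e-04, edgeR). Snord15a averaged 22.6 ± 5.53 CPM in aged and 9.67 ± 1.92 CPM in adult libraries (SD, n = 4 each). The age effects of Snord17, Snora23 and Snord15a were -0.75, -0.96 and -0.72 at ZT8, and 0.27, 0.25 and 0.50 at ZT16. For each of these 4 RNAs library 4 was the highest of both its groups, the groups did not overlap, and the adult ZT0 mean was the lowest of the 12. The box H/ACA RNAs Snora15 (1.28, adjusted p = 0.0153) and Snora43 (1.01, adjusted p = 0.00439, edgeR) rose too. Snora15 had 2.47 to 4.65 CPM in aged and 1.00 to 2.08 CPM in adult libraries, and Snora43 had 1.88 to 2.74 CPM in aged and 0.67 to 1.57 CPM in adult libraries. Snora15 lost its call without aged library 4 or adult library 2 or 3 (adjusted p up to 0.0707).

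The host genes were not called. Eif4a2 (host of Snora81) was at 0.12 (SE 0.10), Ipo7 (of Snora23) at 0.02 (SE 0.07), Snx5 (of Snord17) at 0.03 (SE 0.06) and Rps3 (of Snord15a) at -0.19 (SE 0.12). Their adjusted p-values were 0.545, 0.927, 0.831 and 0.366 (edgeR). A snoRNA's count can include reads from the unspliced host transcript, since total RNA was sequenced and the strand setting of the counting is not given in the sources used here. Of the 18 called snoRNAs and Cajal body RNAs the adult ZT0 mean was the highest or lowest of the 12 groups for 12, and the aged ZT0 mean for 3. Over the other 5 times 28 of the 118 rose and 1 fell (15.1% and 15% of all genes did), with a median of 0.10.

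**Figure D3:**
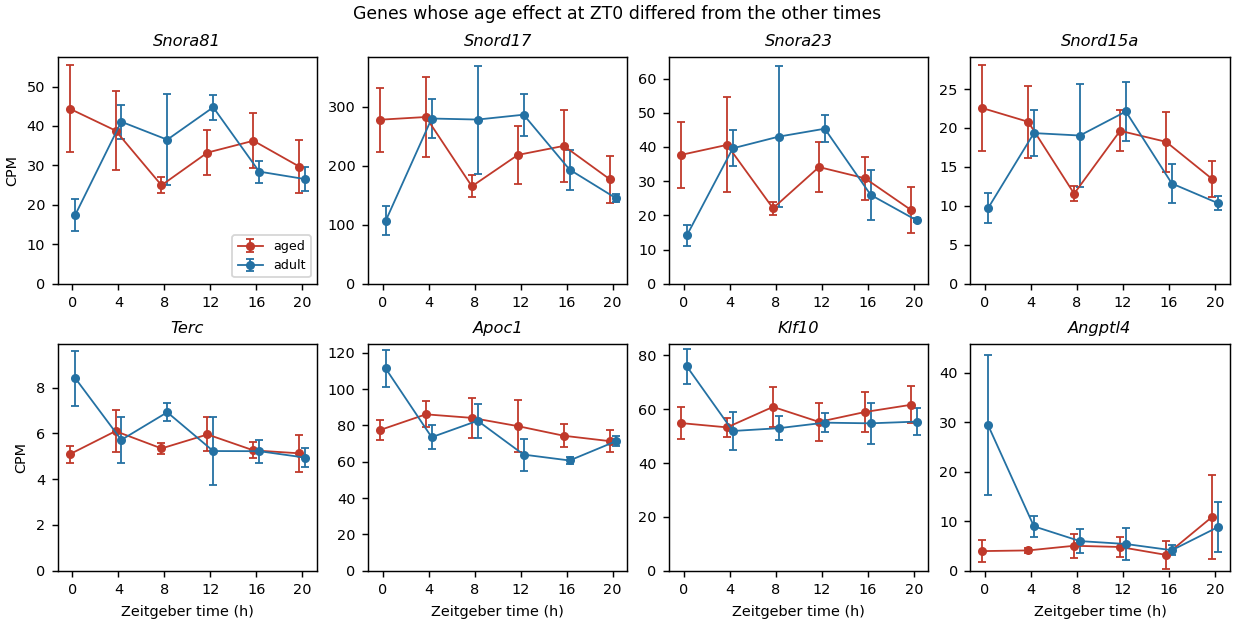
Mean CPM with SD (4 libraries each) of 8 genes across the 6 Zeitgeber times in aged (red) and adult (blue) epidermis. At ZT0 the adult mean is the lowest of all 12 groups for the 4 snoRNAs in the top row and the highest for the 4 genes below, and the curves of the ages lie closer at most other times.

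A few other noncoding RNAs were lower in aged epidermis at ZT0. Terc, the RNA template of telomerase, had 5.26, 5.14, 4.56 and 5.40 CPM in aged libraries, against 7.60, 8.53, 7.45 and 10.1 CPM in adult libraries. It fell by 0.73 (SE 0.14; adjusted p = 0.00126, edgeR), was at -0.01 over the other times, and its difference was called (-0.72, SE 0.15; adjusted p = 0.0306, edgeR). The Cajal body RNA Scarna2, which guides modification of spliceosomal RNA, fell by 0.75 (SE 0.14; adjusted p = 0.00102, edgeR) and averaged 41.2 CPM in aged and 69.0 CPM in adult libraries. Scarna6, of the same class, rose by 0.75 (SE 0.13; adjusted p = 6.16e-04, edgeR), with 48.4 to 69.4 CPM in aged and 28.3 to 39.7 CPM in adult libraries. The abundant RNAs Rn7sk, which holds a transcription elongation factor inactive, and Rpph1, the RNA of ribonuclease P, fell by 0.41 and 0.42 (adjusted p = 0.0436 and 0.041, edgeR). Rn7sk had 13284 to 16997 CPM in aged and 18562 to 20439 CPM in adult libraries. Both lost their calls without any 1 library except aged library 4 (adjusted p up to 0.135 and 0.118). Of these noncoding RNAs Scarna6 alone rose, and the part of library makeup in their changes was not tested.

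Among protein-coding genes, Angptl4, a secreted inhibitor of lipoprotein lipase that fasting and glucocorticoids raise, showed the largest difference between the age effect at ZT0 and that over the other times of those named (-2.57, SE 0.59; adjusted p = 0.0451, edgeR). It had 2.61, 7.14, 3.42 and 2.7 CPM in aged libraries, against 37.6, 12.3, 23.9 and 44.0 CPM in adult libraries. Angptl4 fell by 2.89 (SE 0.55; adjusted p = 0.00128, edgeR), and the other 10 groups averaged 3.19 to 10.9 CPM, so that adult ZT0 stood alone with a mean of 29.4 CPM. It was the only called member of 18 glucocorticoid response genes (median -0.28 at ZT0, 0.31 over the other times), against 2.02% of all genes that fell. Pdk4, a kinase that spares glucose during fasting, was at -1.27 and not called (adjusted p = 0.0525, edgeR). The apolipoprotein gene Apoc1 fell by 0.52 (SE 0.10; adjusted p = 0.00172, edgeR), with 69.3 to 81.6 CPM in aged and 103 to 126 CPM in adult libraries. Over the other times Apoc1 rose by 0.17, and the difference was called (-0.70, adjusted p = 0.00135, edgeR). Klf10, a transcription factor induced by TGF-beta and under clock control in liver, fell by 0.47 (SE 0.11; adjusted p = 0.00714, edgeR), with 47.5 to 61.5 CPM in aged and 69.4 to 83.7 CPM in adult libraries.

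Arl6ip5, a membrane protein gene of the endoplasmic reticulum, fell by 0.39 (adjusted p = 0.00221, edgeR). Cebpb, a transcription factor of differentiation and inflammation, fell by 0.90 (SE 0.15; adjusted p = 2.52e-04, edgeR), with 18.5, 21.8, 21.1 and 19.9 CPM in aged libraries, against 43.6, 34.0, 33.7 and 40.3 CPM in adult libraries. Here the aged ZT0 mean of 20.3 CPM stood apart, under the 25.8 to 38.1 CPM of the other 10 groups. Wdr92, of an assembly complex for ciliary motors, was not called at ZT0 (-0.60, adjusted p = 0.161, edgeR) but rose by 0.85 over the other times, and that difference was called (-1.45, adjusted p = 0.0164, edgeR). Its effects at ZT4, ZT8, ZT12, ZT16 and ZT20 were 0.24, 0.73, 0.78, 0.64 and 1.86, so ZT20 weighed most in that mean.

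Over the 42 genes with a called difference, 39 were also called at ZT0. Of these the adult ZT0 mean was the highest or lowest of the 12 groups in 33, the aged ZT0 mean in 16, both in 12 and neither in 2. Over all 18044 genes tested the adult ZT0 mean was the extreme in 24.2% and the aged in 15.4%, and over the 804 genes called at ZT0 in 55.5% and 39.9%. The called genes were chosen on the same libraries, so these shares are a description. The difference stayed called with any 1 of the 8 libraries left out, and without both libraries numbered 2, for Snora81, Snora23, Snord17, Snord15a and Apoc1. For Scarna2 and Arl6ip5 it was lost without aged library 1 or 2 or adult library 4, and for Wdr92 without aged library 1 or adult library 4 (adjusted p up to 0.092, 0.111 and 0.0818, edgeR). For Terc it was lost without any 1 aged library or adult library 4, and for Klf10 without aged library 1, 2 or 3 or adult library 1 or 4 (up to 0.12 and 0.0943). Angptl4 and Cebpb kept it only without adult library 2 (otherwise up to 0.154 and 0.147), Scarna6 only without aged library 3 or adult library 4 and Snora43 only without adult library 2 or 4 (up to 0.159 and 0.13).

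The largest changes with age at ZT0 were mostly shared with the other times. Cadps2, which primes vesicles for release, rose by 2.80 (SE 0.21; adjusted p = 9.17e-13, edgeR), with 9.12, 7.94, 9.83 and 9.77 CPM in aged libraries, against 1.41, 1.19, 1.30 and 1.36 CPM in adult libraries. It rose by 2.73 over the other times. The serpin gene Serpinb6d rose by 2.50 (SE 0.66; adjusted p = 0.022, edgeR) with 15.2, 15.7, 4.98 and 4.35 CPM in aged libraries, against 1.09, 0.361, 3.29 and 2.39 CPM in adult libraries. Its aged libraries fell into a high and a low pair, and its call was lost without library 1 or 2 of either age (adjusted p up to 0.0776). Zmat4 (a zinc finger gene), Pls1 (an actin bundler), Nav3 (a microtubule-associated protein) and Gpha2 (a glycoprotein hormone subunit) rose by 2.18, 1.62, 1.57 and 1.34. The reductase gene Akr1c13 and Pid1, an adaptor that dampens insulin signalling, rose by 1.33 and 1.43. Akr1c13 lost its call without aged library 2 (adjusted p = 0.068) and Pid1 without aged library 4 or adult library 2 or 4 (up to 0.0868). Ajm1, of apical junctions, rose by 1.34, and the matrix metalloprotease Mmp3 by 1.51 (adjusted p = 0.0492, edgeR; up to 0.158 without any 1 library except aged library 3).

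The 3 neighbouring inflammatory caspase genes on chromosome 9 rose together and were the only called members of the inflammasome list (3 of 17, against 2.44% of all genes called higher). Casp1, which cuts interleukin 1 beta into its active form, had 38.1, 33.2, 33.2 and 37.7 CPM in aged libraries, against 18.9, 19.9, 17.8 and 23 CPM in adult libraries. Casp1 rose by 0.84 (SE 0.12; adjusted p = 1.17e-05, edgeR), Casp4, the sensor of intracellular endotoxin, by 0.80 (SE 0.13; adjusted p = 2.18e-04, edgeR), and Casp12 by 1.25 (SE 0.23; adjusted p = 0.00105, edgeR). Over the other times they rose by 0.80, 0.74 and 1.57, and all 3 calls at ZT0 held with any 1 library left out. On GRCm38 they span 5298517 to 5307281, 5308849 to 5336791 and 5345442 to 5373034. The other 14 members were not called at ZT0, and the same 3 genes were called without both libraries numbered 2.

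Among the largest falls, Myoc, a secreted matrix protein, fell by 3.70 (SE 0.53; adjusted p = 1.91e-05, edgeR), with 0.558, 0.645, 0.313 and 0.395 CPM in aged libraries, against 6.34, 2.84, 12.3 and 3.46 CPM in adult libraries. All adult values lay above the aged ones but they spread widely. The imprinted zinc finger gene Peg3 fell by 2.64 (SE 0.32; adjusted p = 9.98e-07, edgeR), with 1.19, 1.73, 1.63 and 1.47 CPM in aged libraries, against 10.6, 9.69, 11.5 and 5.93 CPM in adult libraries. Peg3 fell by 2.23 over the other times. Of the other 19 tested members of the imprinted list, Plagl1 and Impact rose (2.44% of all genes did), by 0.66 and 0.23 (adjusted p = 0.00638 and 0.041, edgeR). Impact lost its call without any 1 library except aged library 3 (adjusted p up to 0.136).

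Hhip, an inhibitor of hedgehog signals, fell by 2.66 (adjusted p = 0.0159, edgeR; lost without aged library 1, 3 or 4 or adult library 3, up to 0.068). Smoc1, a matrix protein that can block BMP signals, fell by 2.56, the actin-associated Pdlim3 by 2.16, the membrane protein gene Lhfpl1 by 1.94, Ramp1, a partner of the receptor for the neuropeptide CGRP, by 1.81, and the spectrin-binding Add2 by 1.79. Their adjusted p-values ran from 3.47e-06 (Lhfpl1) to 9.91e-04 (Ramp1, edgeR), and all 5 also fell over the other times. The near-identical copies Tmem254a, Tmem254b and Tmem254c on chromosome 14 fell by 2.09, 2.09 and 2.06. Each had 11.5 to 14.5 CPM in aged and 50.8 to 60.7 CPM in adult libraries, but their reads cannot be told apart with certainty, since the handling of reads that match several genes is not given in the sources used here.

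Stress, lysosome and defence genes gave a few further falls and no rises, where 2.02% of all genes fell. Of 20 heat shock genes Hspb8, Hspb1 and Ahsa1 fell, by 0.54, 0.62 and 0.33 (adjusted p = 0.0052, 0.0128 and 0.0334, edgeR). The small heat shock protein gene Hspb1 had 323, 308, 347 and 339 CPM in aged libraries, against 563, 554, 396 and 514 CPM in adult libraries, and adult library 3 was the closest to the aged ones. Hspb1 lost its call without adult library 1 (adjusted p = 0.0551), and Ahsa1, a cochaperone of HSP90, without any 1 library except adult library 3 (up to 0.109). Among autophagy and lysosome genes Ctsa, a lysosomal enzyme gene, and Tfeb, a regulator of lysosomal genes, fell by 0.33 and 0.31. Tfeb lost its call without any 1 library except aged library 3 (adjusted p up to 0.159). Of 11 antimicrobial genes the beta-defensins Defb1 and Defb6 fell by 0.68 and 0.78 (adjusted p = 0.0167 and 0.0319, edgeR), and the median was -0.61. Defb1 lost its call without aged library 1 or 3 or adult library 4, and Defb6 in each case except without aged library 2 or adult library 1 (up to 0.065 and 0.126).

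Differentiation markers gave 1 call at ZT0, where 4.46% of all genes were called. Of 31 markers of differentiated keratinocytes only the cornified envelope gene Sprr1a fell, by 1.24 (adjusted p = 0.0441, edgeR; lost without any 1 library, up to 0.122). The median of the list was -0.26 at ZT0 and -0.38 over the other 5 times, where 20 members fell, against 15% of all genes. Krt1, the suprabasal keratin, was at 0.80 with 1446 ± 224 CPM in aged and 830 ± 163 CPM in adult libraries (SD, n = 4 each; adjusted p = 0.0568, edgeR). The growth factor gene Tgfa alone of 14 genes of the EGF receptor family fell (2.02% of all genes did). Tgfa fell by 0.72 (SE 0.14; adjusted p = 0.00102, edgeR), with 7.45 to 9.54 CPM in aged and 11.9 to 15.9 CPM in adult libraries.

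Of the 19 core clock genes 1 was called at ZT0, against 4.46% of all genes. Clock rose by 0.27 (SE 0.07; adjusted p = 0.0273, edgeR), with 148, 151, 144 and 156 CPM in aged libraries, against 129, 124, 126 and 119 CPM in adult libraries, and lost its call without aged library 2 or 4 or adult library 3 or 4 (adjusted p up to 0.0737). Arntl, its partner, was at -0.02 (SE 0.15), and Per2 at 0.02 (SE 0.28), with 3.33 to 6.74 CPM in aged and 3.31 to 7.74 CPM in adult libraries. Per1 had 45.3, 84.2, 39.6 and 44.6 CPM in aged libraries, against 92.8, 59.7, 71.2 and 85.6 CPM in adult libraries. It was not called at ZT0 (-0.53, SE 0.26; adjusted p = 0.234, edgeR) and rose by 0.61 over the other times; that difference was not called (-1.15, adjusted p = 0.0661, edgeR). The median of the clock list was 0.06 at ZT0 and 0.28 over the other 5 times, where 12 members and 15.1% of all genes rose. The effects at those times were uneven. At ZT20 Per1, Per2, Ciart, Nr1d2 and Dbp were at 1.34, 1.00, 1.05, 0.95 and 0.84. At ZT12 the same genes were at 0.10, 0.13, 0.05, 0.19 and 0.22. Clock differed from them, at 0.09 at ZT20 and 0.21 at ZT12. At ZT0 the members other than Clock, Arntl, Per1 and Per2 were between -0.77 (Nfil3) and 0.44 (Hlf). Yap1, the effector of the Hippo pathway, was at 0.04 (SE 0.07; adjusted p = 0.77, edgeR). Of 21 Hippo genes Amotl1 rose by 0.25 and Vgll4 fell by 0.43, against 2.44% and 2.02% of all genes. Amotl1 lost its call without aged library 1, 3 or 4 or adult library 1 or 3, and Vgll4 in each case except without aged library 2 or adult library 2 (up to 0.0857 and 0.127).

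**Figure D4:**
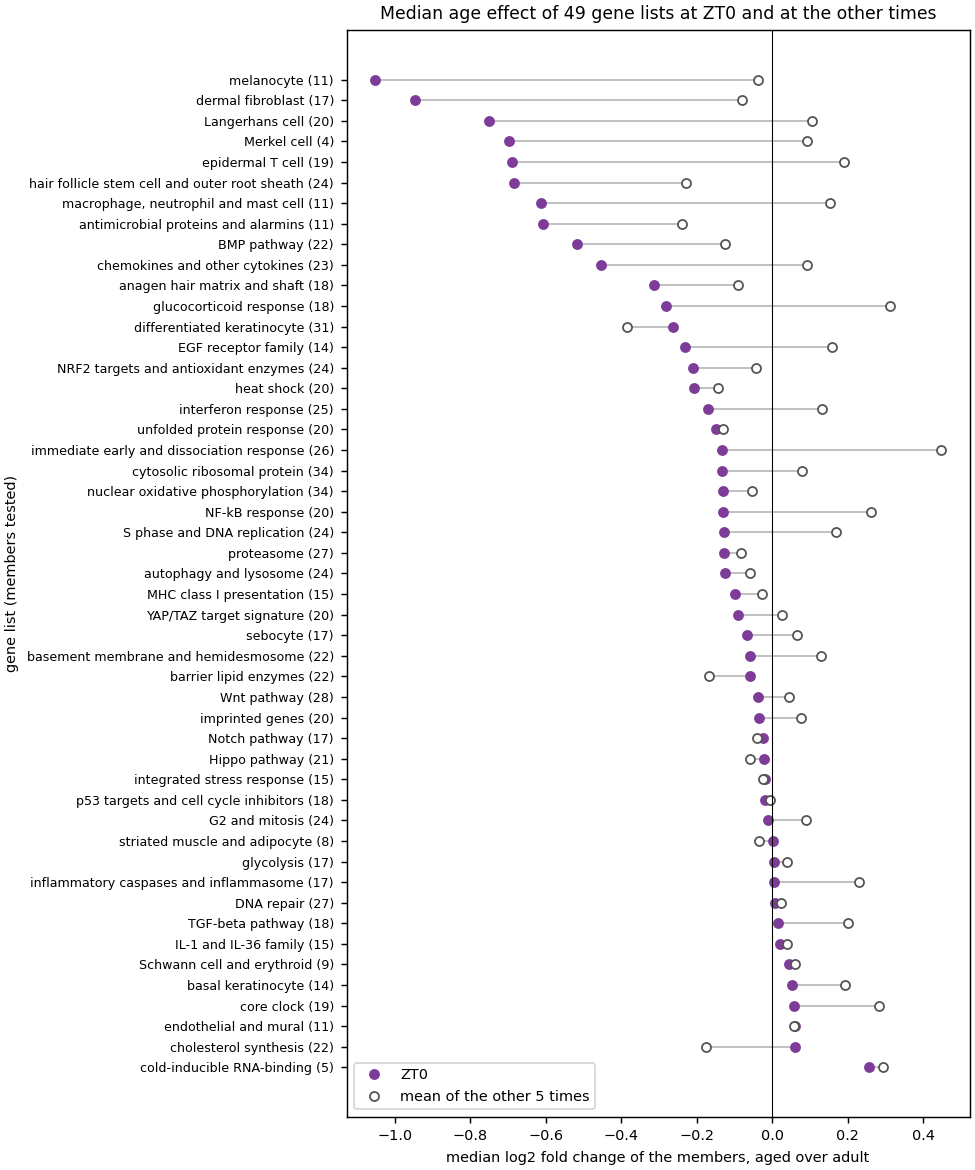
Median log2 fold change (x axis, aged over adult) of the tested members of each of 49 gene lists at ZT0 (filled) and over the other 5 times (open), ordered by the ZT0 value. Melanocyte (-1.05), dermal fibroblast (-0.95) and Langerhans cell (-0.75) markers stand lowest at ZT0, and cold-inducible genes (0.26) highest. The medians carry no test, and 4 of the 11 melanocyte genes were under 1 CPM in all 8 libraries of ZT0.

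The called protein-coding genes also differed in base composition, which the calls did not use. Of 330 genes higher in aged, the 327 with a transcript had a median transcript GC content of 44.4% (quartiles 40.3% and 49.3%), against 52.2% (47.4% and 55.9%) for the 320 lower in aged and 49.9% for all 15348 tested. Their median transcript length was 4313 bases for the higher and 2729 bases for the lower genes, against 3289 bases for all tested. Of the genes tested in the lowest quintile of GC content 5.17% were higher and 0.85% lower in aged, and in the highest quintile 0.752% were higher and 2.81% lower. The median log2 fold change over all genes of the lowest quintile was 0.07, and that over the highest quintile -0.07. At ZT4 the same medians were -0.00 and 0.03, and at ZT20 -0.03 and 0.02. The gap had the sign of ZT0 at ZT8 (0.03 and -0.02), ZT12 (0.06 and -0.06) and ZT16 (0.05 and -0.07).

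The shift was also described per ZT0 library. Each gene was centred on its mean over the same 8 libraries, so the signs of the gaps in the ages are linked. The median centred log2 CPM of the lowest GC quintile lay above that of the highest by 0.076, 0.040, 0.027 and 0.107 in aged libraries, and the same gap was -0.087, -0.070, -0.053 and -0.046 in adult libraries. Removing each library's own trend with GC content left 367 genes higher and 345 lower, of which 316 and 294 were among the 440 and 364, and 42 genes with a called difference. In that fit 7 of the 8 follicle genes, the 6 BMP genes and the 3 caspases stayed called, and Krt17 did not (adjusted p = 0.0599, edgeR). Clock, Tfeb and Impact lost their calls there as well (adjusted p = 0.101, 0.137 and 0.129, edgeR), as did Rn7sk, Sprr1a, Col6a1, Col6a2, Mmp3, Ttk and Vgll4 (0.0511 to 0.0841). The part of base composition in each gene's result was not tested further.

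**Figure D5:**
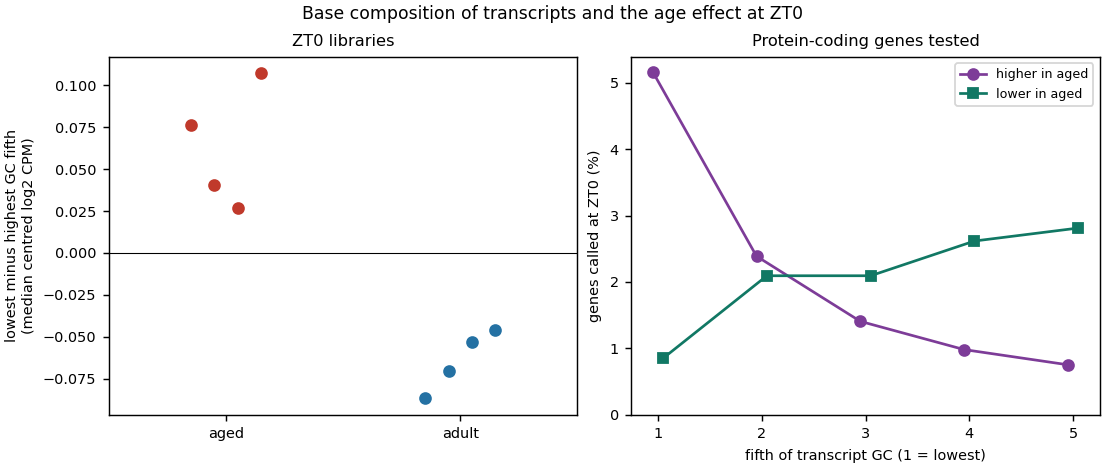
Left, the gap in median centred log2 CPM between protein-coding genes of the lowest and the highest quintile of transcript GC content in each aged (red) and adult (blue) library of ZT0; aged libraries lie above 0 and adult libraries below. Right, the percentage of protein-coding genes tested in each GC quintile (1 is the lowest) that were called higher or lower in aged, which runs from 5.17% to 0.752% for the higher and from 0.85% to 2.81% for the lower genes.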

How the data were processed

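Per the submitters' processing notes, reads were trimmed with Trim Galore, aligned with STAR 2.7.10a to mm10 (GRCm38) and counted with featureCounts; the annotation and the settings for strand and multi-mapping are not stated in the sources used here. The authors deposited raw counts as whole numbers for 24996 Entrez genes. RefSeq (GRCm38.p6) named 23476 of these; the rest held 3.66% of counts. Library size and gene tests used edgeR 4.0.16 in R 4.3.3. Its filter (minimum count 10, minimum total 15) kept 18044 genes. Scaling used the trimmed mean of M values (TMM), and robust quasi-likelihood fits had a mean per age and time, 12 in all (36 residual degrees of freedom; biological coefficient of variation 18.0%). All p-values are two-sided and adjusted by Benjamini and Hochberg over all 18044 genes; fold changes are log2 of aged over adult, with a standard error (SE). Log2 CPM used a prior count of 2. Alternatives used DESeq2 1.42.0, limma 3.58.1, other filters, other scaling, other samples, a replicate block and leaving out each library. The fits were tested on simulated data. In pairs of replicate libraries, 29.1% to 49.5% of genes with enough counts differed by more than a nominal limit for sampling noise. Sampling alone would put a small share of genes past that limit. Replicate libraries were counted separately. Transcript GC content and length were those of the longest GENCODE M21 transcript matched by Entrez identifier (99.6% of the protein-coding genes tested).

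The members and the 49 gene lists were chosen with earlier results of these data known. Named genes at ZT0 were the 15 largest rises and 15 largest falls among called genes whose aged libraries all lay above or all below the adult ones, at a mean log2 CPM from 0 upwards. Up to 4 called members with the smallest p per list, the core clock genes, Yap1 and Fgf18, and the 10 genes with the smallest p for the difference from the other times were added. Predicted genes were left out of these rankings. Genes named after their values were seen were Cebpb, Ccl7, Cxcl9, Pdk4, Id1, Id2, Id3, Fst, Foxc1, Bmpr1b, Snora43, Scarna6, Rn7sk, Rpph1, Cd207, Krt1, Krt17, Krt79 and the list members and host genes given without a call. Not every gene that the rule gives is reported here.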

Additional observations from a re-analysis of the deposited data

Results flagged for a closer look

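In 12 of 252 groups of 4 libraries checked (named genes and marker sums, each age at ZT0), 1 library lay far from the other 3; chance flags about 1 in 20 groups. Aged library 2 was the library apart in 5 of them. It had 141 CPM of anagen hair matrix and shaft markers (28.7 to 29.6 CPM in the other aged libraries) and 84.2 CPM of Per1 (39.6 to 45.3 CPM). It also had 5.78 CPM of Akr1c13 (3.26 to 3.61 CPM), 15.5 CPM of Ddx58 (10.6 to 11.3 CPM) and an endothelial and mural marker sum of 11.5 CPM (9.26 to 9.42 CPM). Adult library 2 had 86.6 CPM of epidermal T cell markers (166 to 182 CPM in the other adult libraries) and 42.9 CPM of Foxc1 (58.5 to 59.9 CPM). Aged library 4 had 0.628 CPM of Fgf18 (1.21 to 1.27 CPM in the other aged libraries) and 69.4 CPM of Scarna6 (48.4 to 50.9 CPM). Aged library 1 had 83.9 CPM of Epcam (87.3 to 87.6 CPM). Adult library 4 had 6.87 CPM of Plagl1 (8.46 to 8.75 CPM) and 167 CPM of Yap1 (153 to 154 CPM).

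The age effect at ZT0 differed from that over the other 5 times, by edgeR's test of the difference, for 15 of the named genes. On the log2 scale the ZT0 effect was above the other by 1.59 for Snora23, 1.5 for Snord17, 1.45 for Snora81, 1.20 for Snord15a, 1.11 for Snora43 and 0.66 for Scarna6. The difference was -2.57 for Angptl4, -1.45 for Wdr92, -1.10 for Smad9, -0.75 for Scarna2, -0.72 for Terc, -0.72 for Cebpb, -0.70 for Apoc1, -0.57 for Klf10 and -0.42 for Arl6ip5. These genes were named partly for this difference.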

How the results depend on the processing

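Of 83 called genes that the rule for named genes or the later choices gave, 46 kept their calls with any 1 library left out and 37 lost them in at least 1 case. Leaving out 1 library gave 236 to 349 genes higher and 179 to 281 lower in aged, 6 to 42 with a called difference, and 106 to 152 higher and 140 to 185 lower at both ZT0 and the other times. It also moved uncalled clock genes across 0 on the log2 scale: Bhlhe40 ran from -0.16 to 0.10, Npas2 from -0.076 to 0.065, Arntl from -0.031 to 0.0031 and Per2 from -0.15 to 0.26. Leaving out both libraries numbered 2 gave 163 higher, 211 lower, 10 differences and 75 and 147 shared with the other times, with Bhlhe40 at 0.048 and Arntl at 0.0066. There, the named genes that lost their calls included Hspb8, Xrcc1, Hspb1, Akr1c13, Snora15, Rab3c, Defb1, Ier5, Prox1, Serpinb6d, Krt79, Pid1, Clock, Tfeb, Ahsa1, Nt5e, Krt17, Ltbp1, Col6a1, Impact, Rpph1, Rn7sk, Sprr1a, Col6a2 and Mmp3. DESeq2 called 572 lower and 132 differences. Without a filter on low counts 125 genes were higher at both. A fit of the ZT0 libraries alone called 1223 higher and 1184 lower. At an adjusted p under 0.01, 135 were higher, 135 lower, 6 differed, 2963 were called over the other times, and 56 and 98 were shared. Without small RNA and rRNA genes 23 differences were called, and with the GC trend removed Npas2 was at 0.0018. That removal, those without small RNAs and without both libraries numbered 2 were chosen after seeing the data. Over all genes, same-numbered libraries of the ages did not deviate together (r from -0.32 to 0.09). That does not settle whether the numbers pair them, and library 4 was the highest of both ages for Snora81, Snora23, Snord17 and Snord15a. With the replicate number as a block, 477 were higher, 376 lower and 58 differed. In the ZT0 libraries alone the block gave 466 higher and 415 lower, of which 254 and 226 were among the 440 and 364 of the main fit. The cause of these shifts was not tested. With 4 libraries per age, small changes of genes near 1 CPM rest on few counts.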

Other observations

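Long noncoding RNAs and miRNA genes were called higher more than lower in aged at ZT0. Of 1073 long noncoding RNAs tested, 46 were higher and 15 lower in aged, against 2.44% and 2.02% of all genes tested, with a median log2 fold change of 0.11. Of 210 miRNA genes, 10 were higher and 0 lower (edgeR's quasi-likelihood test, adjusted p under 0.05). The counts come from libraries of total RNA, and which transcripts gave the reads at miRNA genes was not tested. Mir23a and Mir27a, neighbours in 1 cluster, averaged 23.1 and 15.4 CPM in aged and 11.0 and 7.09 CPM in adult libraries. They rose by 1.07 and 1.12 (adjusted p = 0.0174 and 0.0133, edgeR), and also over the other 5 times, by 0.84 and 0.80. Both were chosen after their values were seen.

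Several other gene lists had 1 or 2 called members at ZT0, where 4.46% of all genes were called. The latent TGF-beta binding protein gene Ltbp1 fell by 1.47, the ceramide hydroxylase gene Degs2 by 1.37, the glutathione transferase gene Gstm1 by 0.66, the RNA sensor gene Ddx58 by 0.48, the ectonucleotidase gene Nt5e by 0.39, Tnip1, which dampens NF-kB, by 0.35 and the DNA repair scaffold gene Xrcc1 by 0.22. The spindle checkpoint kinase gene Ttk rose by 0.65, the vesicle GTPase gene Rab3c by 0.70 and Prox1, of lymphatic endothelium, by 1.23. Prox1 was near the floor, with means of 0.569 CPM in aged and 0.241 CPM in adult libraries. Tnip1 alone of these 10 kept its call with any 1 library left out. No member was called for ribosomal proteins (34 tested, median -0.13), oxidative phosphorylation (34, -0.13), the proteasome (27, -0.13), S phase (24, -0.13), Wnt (28, -0.04), the unfolded protein response (20, -0.15) or cholesterol synthesis (22, 0.06). Over the other 5 times 13 proteasome, 12 unfolded protein response and 10 cholesterol genes fell, against 15% of all genes.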
